A study of Homo sapiens with 9 samples.

Results

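The 108 genes described here were near silent in HNT34 cells that carried a non-targeting shRNA (NT) and were read in every library once EVI1 had been knocked down. They were chosen by their measured counts. A member had at most 10 raw counts in each of the 3 NT libraries and at least 30 in each of the 6 EVI1 shRNA libraries. Of the 16612 rows in the count table, 125 met both limits, and 17 of these were left out by name (15 clone names, ADGRB2 and LINC02614). RefSeq lists 96 of the members as protein coding, 10 as pseudogenes, 1 as a snoRNA (SNORA70) and 1 as a long noncoding RNA (PEG13).

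HNT34 is a human acute myeloid leukemia (AML) cell line with high EVI1 expression. The cells were transduced with lentiviral vectors that carried NT, EVI1 sh#16 or EVI1 sh#87, selected with puromycin and collected 3 days after selection, so every group had been through transduction and selection. Each group has 3 libraries of polyA RNA made with a strand-specific kit. For the sh#87 libraries 1 field of the labels gives the number 18, and the titles were followed here. Nothing states that the libraries are separate cultures, so SDs and n refer to libraries and may be technical. Library totals lay between 17096170 and 43502389 counts. The 3 NT libraries differed from one another, with 15.9%, 11.5% and 4.69% of their counts on mitochondrially encoded genes in NT replicates 1, 2 and 3. The sh#16 libraries held 2.69% to 2.88% and the sh#87 libraries 4.62% to 5.97% of such counts.

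EVI1 is a zinc finger transcription factor encoded by MECOM, active in blood stem cells and in AML with rearrangements of its locus, where it can repress genes through corepressors and histone deacetylases. Silent genes of other tissues, such as those of neurons or cilia, are normally kept off in blood cells by repressive chromatin and by the lack of their own activators. MECOM itself lay at 571, 504 and 440 CPM (counts scaled by the library size after TMM normalization) in NT. It lay at 145, 143 and 145 CPM with sh#16 and at 109, 107 and 106 CPM with sh#87, and the log2 difference between sh#87 and sh#16 was -0.43 (SE 0.09, adjusted p = 0.00661 by the edgeR fit of all 3 groups).

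The limits on raw counts stand for slightly different levels, because the libraries differ in depth. A count of 10 is worth 0.334 to 0.433 CPM in the NT libraries, and a count of 30 is worth 0.648 CPM in the deepest and 1.64 CPM in the shallowest knockdown library. Among the members, 9 had 0 counts in all 3 NT libraries (AMIGO3, DNAAF1, EFR3B, KIAA0319, SLC7A5P1, SLC7A5P2, VGF, VWA5B2 and WHRN), 35 had at most 3 counts in each, and the other 73 had 4 to 10 counts in the highest NT library. Just inside the NT limit, with 10 counts in the highest library, stood ADAMTSL5, CAVIN4, DIXDC1, KIAA0895, MMADHCP2, NOTCH2NLB, PRRT4, SNORA70 and TMEM145. Just outside it, with 11, stood ASPG, CDC42EP4, COL7A1, EPS8, RASAL1, SDC3, SYN1 and TLCD3B. At the other limit DEPDC7, DNAAF1, DNAH14, FGFR1, LRP11, MAFA, NANOS1 and NEO1 had 30 or 31 counts in their lowest knockdown library, and ACBD7, ARHGAP29, HAPLN3, ITGA10, ITGB1BP2 and TENT5B missed it with 28 or 29.

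How far the choice held in a library that it had not used was asked by leaving out each library in turn. Chosen without NT replicate 1, 112 genes qualified, of which 96.4% had at most 10 counts in the library left out, against 12.8% of all rows. The same share was 96.4% for NT replicate 2, against 12.6% of all rows. Without NT replicate 3 the choice grew to 162 genes, of which 66.7% met the limit in that library, against 9.95% of all rows. The 54 genes that did not had between 11 and 529 counts there, with a median of 16, so NT replicate 3 held reads of genes that the other NT libraries almost lacked. On the knockdown side between 108 and 131 genes were chosen, and 82.4% to 100% of them reached 30 counts in the library left out, against 76.6% to 87.2% of all rows. The lowest of these shares belonged to sh#16 replicate 3, the shallowest library. Genes chosen without a library had already met the same limit in its replicates. The share of all rows is therefore a loose comparison, and these values describe the choice and do not test it.

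Together the members took 15.0 to 15.5 CPM of the NT libraries, 522 to 546 CPM of the sh#16 libraries and 614 to 625 CPM of the sh#87 libraries. Most stayed low after knockdown. Only 9 members reached a mean of 10 CPM over the 6 knockdown libraries, 27 lay at 5 to 10 CPM and 72 below 5 CPM, with a median of 3.44 CPM and a range from 1.68 CPM (LRP11) to 41.4 CPM (PMEL). Per length of transcript, their median stood at percentile 19.0 of the 14019 genes with a known length in the knockdown libraries, against percentile 2.41 in NT. Above the median gene by this measure were 7 members, namely SNORA70, PMEL, CRIP2, ROPN1L, APLP1, CYSTM1 and TMEM59L. Every member passed an edgeR fit of knockdown against NT with a log2 fold change of 2 or more at an adjusted p up to 0.01. The choice of members fixes the direction and favours such a call, so this is no test of them. In that fit 9.74% of 16312 genes were called higher and 5.66% lower.

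PMEL, which forms the fibrils of the melanosome, was the highest member. Its NT libraries held 2, 3 and 7 counts, and its level in the knockdown libraries was 35.2 CPM at the lowest, 40.5 CPM at the median and 50.1 CPM at the highest. The pooled ratio of knockdown to NT was 259 (exact 95% interval 148 to 502, which like all such intervals here covers counting error only). PMEL lies on chromosome 12 from 55954105 to 55966709 (RefSeq, GRCh38.p14). Of the 20 melanosome and pigment genes listed for this work, 7 were tested, and PMEL and GPNMB (0.0511 ± 0.0454 CPM in NT, SD, n = 3, and 0.879 ± 0.179 CPM after knockdown, SD, n = 6) were called higher and none lower. Hence the highest member was joined by 1 other pigment gene at a low level, while the remaining 5 tested were not called.

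COL1A1, a chain of fibrillar collagen I, followed with 4, 1 and 4 counts in NT. Its knockdown levels ran from 25.9 CPM through a median of 27.5 CPM to 30.2 CPM, a pooled ratio of 234 (123 to 512). All 6 knockdown libraries thus lay within a narrow band. Among the 29 collagen and laminin genes listed, 14 were tested, of which COL1A1, COL7A1, COL11A2, LAMA5 and LAMC3 were called higher and COL18A1 lower. The median log2 fold change was 1.25 over the 13 that are no member, beside 0.05 over all genes tested, and the list was drawn up with results of these data known.

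PEG13, an imprinted noncoding RNA, held 9, 7 and 9 counts in NT and ran from 11.7 CPM to 39.8 CPM after knockdown with a median of 24.9 CPM. It overlaps TRAPPC9, which was itself called higher, from 43.9 CPM in NT to 213 CPM after knockdown. CRIP2, a LIM domain protein, had 0, 1 and 8 counts in NT and a median of 12.7 CPM and a highest value of 17.6 CPM in the knockdown libraries. EML6, a microtubule-associated protein, went from 1, 3 and 7 counts to between 9.23 and 14.3 CPM. None of these members overlapped between knockdown and NT, as the choice of members requires. SAMHD1, a nucleotide hydrolase that limits retroviral replication in myeloid cells, had 5, 5 and 6 counts in NT and 10.6 to 18.7 CPM after knockdown.

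**Figure D1:**
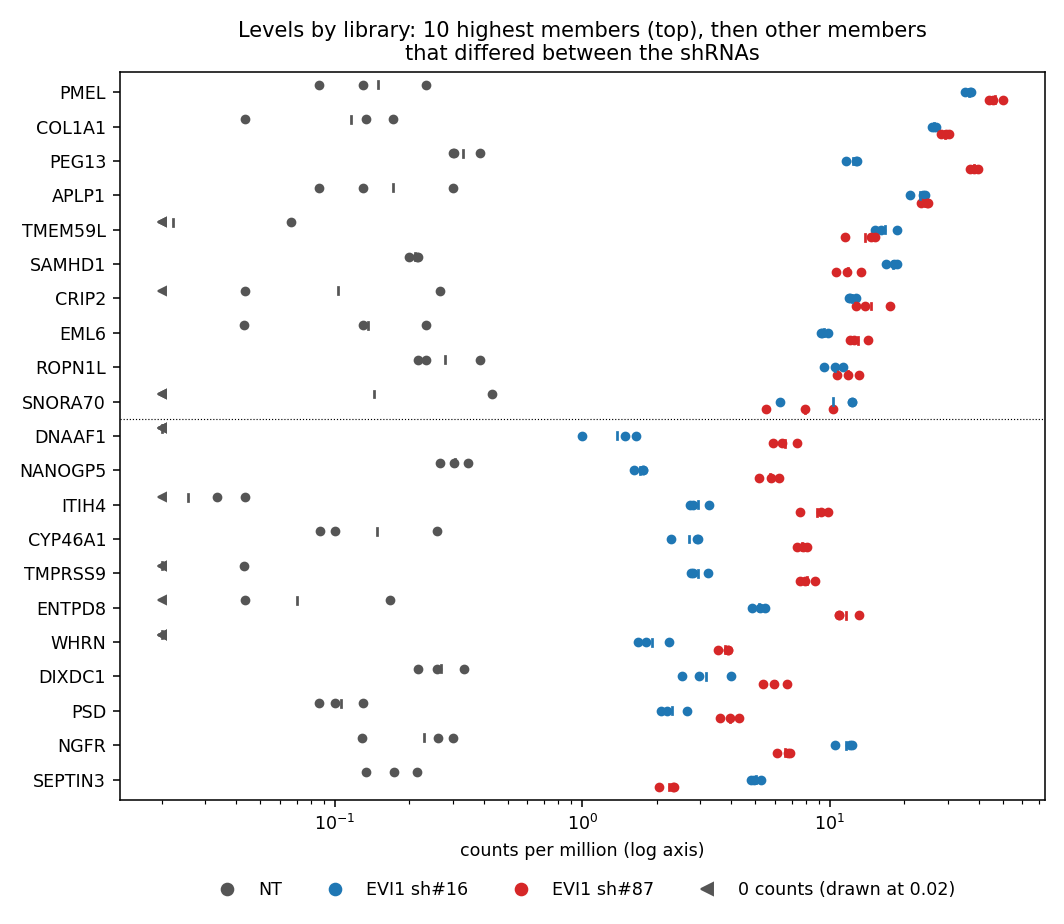
CPM on a log axis in each library for the 10 members with the highest mean level (above the dotted line) and for 11 of the other 12 members called between the shRNAs, with bars at group means and triangles for 0 counts. Every NT point lies below every knockdown point, while sh#16 and sh#87 separate for some members, such as PEG13 and DNAAF1, and mix for others, such as APLP1.

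Genes known for a role in neurons formed the largest group, with 24 of the 108 members, when these were sorted by role after their values had been seen. Each member was given 1 role, so that NGFR stands here and FGFR4 among the receptors. The share of such genes over all rows was not counted, so the size of the group describes the sorting only. Membrane proteins led the neuronal group. APLP1, a relative of the amyloid precursor protein, had 2, 3 and 9 counts in NT and 21.2, 24.1 and 24.8 CPM at the lowest, median and highest of the knockdown libraries. TMEM59L, a Golgi protein of neurons, had 0, 0 and 2 counts in NT and 11.5, 15.2 and 18.7 CPM after knockdown, a pooled ratio of 604 (167 to 4994). Both stood above the median gene per length in the knockdown libraries. SLC8A2, a sodium-calcium exchanger, held 5, 1 and 1 counts in NT and rose to a range of 6.56 to 11.6 CPM. Its paralog SLC8A3 moved the other way, with 6.54 ± 0.705 CPM (SD, n = 3) in NT and 0.0212 ± 0.0259 CPM (SD, n = 6) after knockdown. For APLP1 the paralog APP lay at 491 ± 56.6 CPM (SD, n = 3) in NT and 143 ± 26.1 CPM (SD, n = 6) after knockdown, a log2 fold change of -1.78 that did not reach the limit of 2. The other paralog, APLP2, lay at 188 ± 24.7 CPM (SD, n = 3) in NT and 309 ± 27.3 CPM (SD, n = 6) after knockdown, a log2 fold change of 0.72.

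The growth factor receptor and the secreted neuropeptide precursor of the group were NGFR and VGF. NGFR, the low-affinity neurotrophin receptor, had 3, 6 and 9 counts in NT and 6.10, 8.68 and 12.3 CPM at the lowest, median and highest of the knockdown libraries. VGF, which is induced by neurotrophins and cleaved into peptides of the regulated secretory pathway, had 0 counts in each NT library and 3.20, 4.02 and 5.11 CPM after knockdown, which is at least 34.1-fold above a floor of 3 counts in each NT library. The vesicle proteins SYT5 and CPLX1 were weaker. SYT5 had 4, 9 and 6 counts in NT and 1.52 to 3.05 CPM after knockdown, and CPLX1 had 7 counts in each NT library and 2.28 to 3.78 CPM after knockdown. Of the 28 neuronal vesicle and axon genes listed, 15 were tested, of which 8 were called higher (VGF, CPLX1, SYN1, STX1A, UNC13A, L1CAM, CELSR3 and TUBB3) and 0 lower. Over all genes tested, 9.74% were called higher and 5.66% lower. Without VGF and CPLX1, whose rise the choice of members fixes, the median log2 fold change was 1.96, beside 0.05 over all genes tested. The listed gene that was in the table but not tested had 12, 15 and 25 counts in NT and 0 in each knockdown library. This list too was drawn up with results of these data known. The highest of these 8 after knockdown was UNC13A, a vesicle priming factor that is no member because its NT counts were above the limit, at 0.588 ± 0.114 CPM (SD, n = 3) in NT and 67.5 ± 20.6 CPM (SD, n = 6) after knockdown.

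Channels and tubulin made up much of the rest. CACNA1G, a T-type calcium channel, had 0, 1 and 4 counts in NT and 5.26 to 7.83 CPM after knockdown. The potassium channel KCNH3 had 0, 0 and 1 counts in NT and 3.37 to 4.96 CPM after knockdown, and KCNC4 had 8, 4 and 7 counts in NT and 4.27 to 6.10 CPM. Of 29 voltage-gated channel genes listed, 11 were in the table and 9 were tested, with 4 called higher (CACNA1G, KCNH3 and KCND1 among them) and KCNQ5 lower. The choice of members fixes the direction for CACNA1G and KCNH3 and favours their calls. Without these 2 the median log2 fold change was 0.83, beside 0.05 over all genes tested. The summed level of the list went the other way, from 142.2 to 157.5 CPM in the NT libraries to 72.3 to 75.5 CPM after knockdown. KCNQ5 lay at a mean of 111 CPM in NT and 5.76 CPM after knockdown. The listed genes in the table that were not tested had 11 to 18 counts in NT and at most 3 in each knockdown library. TUBB2A, a beta-tubulin of neurons, had 1, 1 and 0 counts in NT and 5.998, 7.42 and 9.80 CPM after knockdown, a pooled ratio of 291 (80.4 to 2405). Of the other beta-tubulin genes tested, TUBB3 (group means of 1.42 CPM in NT and 14.5 CPM after knockdown) and TUBB4B (116.5 and 493 CPM) were called higher, and TUBB, with a log2 fold change of 0.43, was not. In contrast, the 27 semaphorin, plexin and ephrin genes tested hold no member, although 6 were called higher and 0 lower.

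The remaining neuronal members were at most moderate in level. REEP2, which shapes the endoplasmic reticulum, had 1, 5 and 3 counts in NT and 6.20 to 10.8 CPM after knockdown. CADM4, a cell adhesion molecule, had 1, 6 and 6 counts in NT and 6.79 to 8.98 CPM. CHRM4, a muscarinic acetylcholine receptor, had 5, 2 and 7 counts in NT and 5.27 to 6.46 CPM, and it overlaps MDK, which lay at 54.9 CPM in NT and 17.6 CPM after knockdown.

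Cytoskeleton and trafficking genes numbered 15, from 1.92 CPM (CCM2L) to 13.5 CPM (CRIP2) on average. RASSF4, a Ras association domain protein, had 2, 3 and 5 counts in NT and 7.61, 8.53 and 8.99 CPM at the lowest, median and highest of the knockdown libraries. ASAP3, an ARF GTPase activator, had 0, 0 and 5 counts in NT and 4.70 to 6.48 CPM, so that only NT replicate 3 held reads of it. OPTN, an autophagy receptor, had 2, 3 and 1 counts in NT and 2.08 to 3.56 CPM after knockdown. The others in this group were REPS2, KANK3, NDFIP2, PLEKHG4B, RAPH1, SPEG, RAB44, CAVIN4 and ENAH beside EML6 and CCM2L. Their pooled ratios included 9.73 (6.52 to 15.2) for PLEKHG4B and 84.1 (28.6 to 409) for KANK3.

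The 10 cell surface receptors outside that group were led by FGFR4, a fibroblast growth factor receptor, with 3, 3 and 8 counts in NT and 6.69, 7.63 and 7.82 CPM at the lowest, median and highest of the knockdown libraries. FGFR1 also qualified, at 1, 4 and 4 counts in NT and 1.52 to 2.41 CPM after knockdown. FGFR2 and FGFR3 did not, with FGFR2 at 50.4 CPM in NT and 38.5 CPM after knockdown and FGFR3 at 1.31 and 4.51 CPM. The NT limit sets which of the 4 receptors were members. FGFR3, with 30, 17 and 57 counts in NT, had a log2 fold change of 1.77. LRP1, an endocytic receptor, had 1, 5 and 3 counts in NT and 4.30 to 6.61 CPM after knockdown, and LRP11 had 1, 2 and 4 counts in NT and 1.52 to 1.92 CPM. FZD4, a Wnt receptor, had 0, 0 and 1 counts in NT and 1.77 to 2.13 CPM after knockdown, with FZD7 and FZD8 also called higher among the 7 FZD genes tested. The receptor of the gut hormone GIP, GIPR, went from 1, 3 and 2 counts to between 3.07 and 5.13 CPM.

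The group sorted as secreted or matrix took in the melanosome protein PMEL and COL1A1. Its others were ITIH4, PI16, ADAMTSL5, C3, CLU and IL15, with mean knockdown levels between 2.52 CPM (IL15) and 5.89 CPM (ITIH4). PI16, a peptidase inhibitor, had 2, 0 and 0 counts in NT and 3.36 to 6.19 CPM after knockdown. C3, the central component of complement, had 4, 6 and 9 counts in NT and 3.35 to 5.10 CPM after knockdown, and IL15, a cytokine of T and NK cells, had 3, 4 and 7 counts in NT and 2.12 to 3.31 CPM. Among enzymes, PHOSPHO1, a phosphatase of matrix vesicles in bone, had 1, 0 and 0 counts in NT and 4.20, 5.17 and 5.95 CPM after knockdown, a pooled ratio of 392 (70.2 to 15520). Of 16 mineralization genes listed, 10 were tested, of which PHOSPHO1 and SPP1 were called higher and SMPD3 lower. TMPRSS9, a membrane-anchored serine protease, likewise had 1, 0 and 0 counts in NT, and was the only one of 3 such proteases tested that was called. The choice of members fixes the direction for PHOSPHO1 and TMPRSS9 and favours their calls.

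The 8 members sorted as transcription and RNA regulators lay between 1.85 CPM (NANOS1) and 4.59 CPM (DIXDC1) on average. That group is a loose one, since it took in DIXDC1, of Wnt signaling, and NOTCH2NLB. HEY1 and HES7 are basic helix-loop-helix repressors of the Notch pathway. HEY1 had 4, 3 and 5 counts in NT and 3.26 to 4.78 CPM after knockdown, and HES7 had 1, 1 and 3 counts in NT and 1.45 to 4.37 CPM. HES6 was called higher too (0.428 to 14.2 CPM, group means), whereas HES1 lay at 25.4 ± 4.58 CPM (SD, n = 3) in NT and 28.5 ± 6.12 CPM (SD, n = 6) after knockdown and was not called. NOTCH2NLB, a truncated copy of NOTCH2, had 2, 10 and 4 counts in NT and 1.36 to 4.45 CPM after knockdown. Its near-identical copies NOTCH2NLA (13.6 to 40.7 CPM, group means) and NOTCH2NLC (27.8 to 55.4 CPM) were higher in the same libraries, and reads may have been split among them, so its own level is uncertain. LHX4, a homeobox factor of motor neurons and the pituitary, had 1, 0 and 1 counts in NT and 1.75 to 2.45 CPM after knockdown.

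Genes of cilia and flagella numbered 8. ROPN1L, of the sperm flagellum, was the highest of them with 9, 5 and 7 counts in NT and 9.49, 11.03 and 13.1 CPM at the lowest, median and highest after knockdown. DNAAF1, which helps to assemble ciliary dynein, and WHRN, a scaffold of sensory hair cells, had 0 counts in each NT library. Against the floor of 3 counts their mean knockdown level was at least 33.2-fold higher for DNAAF1 and at least 23.7-fold higher for WHRN. DNAH14, an axonemal dynein heavy chain, had 4, 5 and 4 counts in NT and 1.37 to 2.64 CPM after knockdown.

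GIMAP4 went against its neighbours in the GIMAP family of lymphocyte GTPases. It had 5, 0 and 5 counts in NT and 1.37 to 4.58 CPM after knockdown. Of the other GIMAP genes tested, GIMAP1, GIMAP2, GIMAP7 and GIMAP8 were called lower. GIMAP2 went from a mean of 30.4 CPM in NT to 3.84 CPM with sh#16 and 1.38 CPM with sh#87. GIMAP6, at 68.0, 32.1 and 16.6 CPM in the same groups, had a log2 fold change of -1.48 and was not called.

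Of the 10 pseudogenes, 8 overlap another gene of the table, and whether the counting used strand is not stated for this table, so part of their reads may belong to that gene. RPSAP6 and POLR3DP1 both lie within ADK, which was at 78.9 CPM in NT and 91.6 CPM after knockdown. RPSAP6 went from 1, 1 and 0 counts to between 1.51 and 4.73 CPM, and POLR3DP1 from 7 counts in each NT library to between 1.71 and 3.24 CPM. The host of NDUFA9P1, RBFOX2, lay at 55.9 and 83.0 CPM and that of TNPO1P1, CCSER2, at 78.8 and 119 CPM, and neither host was called. Other overlapping genes were higher after knockdown. TPTE2P5, which overlaps SUGT1P3, was called higher with a log2 fold change of 2.12. ABTB2, which overlaps MMADHCP2, went from 29.5 to 66.1 CPM, and SMG1P2, which overlaps SLC7A5P1, from 8.66 to 34.2 CPM, with log2 fold changes of 1.16 and 1.98 that lay below the limit of 2. The part of these genes in the pseudogenes' counts was not tested. SLC7A5P1 and SLC7A5P2 had 0 counts in each NT library and means of 3.58 and 2.93 CPM after knockdown, beside 605 CPM in NT and 587 CPM after knockdown for their parent SLC7A5. SNORA70, a small nucleolar RNA within RPL10, had 10, 0 and 0 counts in NT and 5.54 to 12.3 CPM after knockdown, while RPL10 lay at 992 and 668 CPM. In all, 28 members overlap another gene of the table, and part of the reads of each may likewise belong to that gene.

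The members not yet named had means after knockdown from 1.87 CPM (YPEL4) to 8.77 CPM (GGT7, a relative of gamma-glutamyltransferase). Among them were the receptors ITGA1, GPR153 and TAS2R43, the enzymes GXYLT2, PRKAR2B, PIR and PNPLA3, the neuronal genes RUNDC3A, BICDL1 and SH2D5, the cilium genes IQCD and EFCAB12, the regulator PURG, the pseudogenes SUGT1P3 and CSPG4P10, and SMIM14, TMEM53, HUS1B and TIGD3, whose roles are less known.

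The direction of a difference between the shRNAs was not used to choose the members, but the limit of 30 counts had to be met with both, so that a gene read with only 1 of the shRNAs could not be a member. The shares below therefore stand under that condition for the members and not for all genes, and are set side by side as a description. The difference was tested in 1 edgeR fit of all 9 libraries. At an adjusted p of at most 0.01, 11 of 108 members (10.2%) were higher and 3 (2.78%) lower with sh#87 than with sh#16, where 8.29% of 16312 genes were higher and 9.42% lower. In both directions together the share was 13.0% of members and 17.7% of all genes. With a log2 difference of at least 1 as well, 8 members (7.41%) were left, beside 4.27% of all genes. The 3 sh#16 and 3 sh#87 libraries did not overlap for 71 members (65.7%), which is close to the 65.4% of all genes. The median log2 difference was 0.19 over the members and -0.02 over all genes tested. The count of 14 was between 7 and 9 (6.48% to 8.33%, beside 6.65% to 9.92% of all genes) without any 1 of the knockdown libraries. It was 26 without NT replicate 1 (24.1%, beside 28.1% of all genes) and 27 without NT replicate 3 (25%, beside 32.4%), so the members' count moved with that of all genes.

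DNAAF1 had the widest gap. It lay at 1.485, 0.994 and 1.64 CPM with sh#16 and at 7.36, 6.43 and 5.90 CPM with sh#87, a log2 difference of 2.29 (standard error 0.23, adjusted p = 0.00062). It is also a member just inside the limit, with 30 counts in 1 sh#16 library. NANOGP5, a pseudogene of the pluripotency factor NANOG within INVS, followed at 1.71 ± 0.0801 CPM (SD, n = 3) with sh#16 and 5.74 ± 0.552 CPM (SD, n = 3) with sh#87, a log2 difference of 1.75 (standard error 0.14, adjusted p = 0.000128). PEG13 was the most precise of the differences, at 12.4 ± 0.681 against 38.3 ± 1.49 CPM (SD, n = 3 each) and a log2 difference of 1.62 (standard error 0.08, adjusted p = 1.68e-05). TRAPPC9, which it overlaps, held 4025, 7286 and 2900 counts with sh#16, the second in the deepest library, and 5992, 6330 and 5302 with sh#87. Part of the reads of PEG13 may belong to TRAPPC9, and the part of TRAPPC9 in this difference was not tested. ITIH4, a liver plasma protein, differed by 1.59 (adjusted p = 0.000406), CYP46A1, which hydroxylates cholesterol in brain, by 1.53 (adjusted p = 0.000757) and TMPRSS9 by 1.47 (adjusted p = 0.00072).

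Smaller differences in the same direction were found for ENTPD8, an ectonucleotidase (log2 difference 1.17), WHRN (0.98), DIXDC1, a positive regulator of Wnt signaling (0.95), and PSD, an exchange factor for ARF6 at synapses (0.76), with adjusted p between 0.00513 and 0.00639. Lower with sh#87 were SEPTIN3, a septin of neurons, NGFR and SAMHD1. SEPTIN3 lay at 5.01 ± 0.236 CPM (SD, n = 3) with sh#16 and 2.23 ± 0.170 CPM (SD, n = 3) with sh#87, a log2 difference of -1.17 (standard error 0.14, adjusted p = 0.000622). For NGFR the values were 11.6 ± 0.990 and 6.59 ± 0.424 CPM and the log2 difference -0.82 (adjusted p = 0.0032), and for SAMHD1 17.9 ± 0.959 and 11.9 ± 1.36 CPM and -0.59 (adjusted p = 0.00264). AMIGO3 and GIMAP4 had differences of 1.57 and -1.36 and missed the threshold with adjusted p of 0.0101 and 0.0109. The part of the lower MECOM level in the sh#87 libraries in these differences was not tested.

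The other members showed no difference that passed the test. Among the highest, COL1A1 differed by 0.15 (standard error 0.11, adjusted p = 0.31), APLP1 by 0.07 (standard error 0.14, adjusted p = 0.715) and TMEM59L by -0.27 (standard error 0.18, adjusted p = 0.27). PMEL, at 36.4 ± 1.01 CPM with sh#16 and 46.5 ± 3.26 CPM with sh#87 (SD, n = 3 each), had no overlap between the shRNAs, yet its log2 difference of 0.35 had an adjusted p of 0.0339. Over the 94 members that were not called, the median distance from the estimate to either end of its 95% interval was 0.38 on the log2 scale, without adjustment for the number of genes. Uncalled members included larger differences, such as 1.04 for RPSAP6 and 0.92 for BICDL1. By role, the median difference ran from -0.14 for the 10 enzymes to 0.69 for the pseudogenes and noncoding RNAs and 0.74 for the cilium genes.

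Several members lie near each other in the genome. Within 1 Mb of the next member were DNAH14 and ENAH on chromosome 1 (87.5 kb apart), RPSAP6 and POLR3DP1 on chromosome 10, RAB44 and PI16 on chromosome 6, NYAP1 and VGF on chromosome 7, NANOGP5 and CAVIN4 on chromosome 9 and ADAMTSL5 and TMPRSS9 on chromosome 19. The longest run was on chromosome 17, where PHOSPHO1, NGFR, COL1A1 and CACNA1G followed each other within 1404.1 kb (49223366 to 50627474, RefSeq on GRCh38.p14). They were not neighbouring genes, since 24 other tested genes lay among them. Of those, ITGA3, SAMD14 and MYCBPAP were called higher, EIF4EP2, TAC4 and TMEM92-AS1 were called lower and the other 18 were not called, with a median log2 fold change of 0.18 over the 24.

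Promoter sequences of RefSeq (GRCh38.p14, from 250 bases before to 50 after the start that the promoter table gives) were found for 67 of the members and for 10373 of the genes tested. For 56 of the 67 that start was the outermost base of the gene, and for the other 11 it lay inside the gene. They were rich in G and C, with a median of 71.3% in the members and 65.0% in all genes. The GC box letters GGGCGG, on either strand, stood in 56 member promoters (83.6%, against 69.1% of all). The letters CCGGAA of ETS factors stood in 9 (13.4%, against 30.2%), and CACGTG in 4 (5.97%, against 10% of all). Closer to the share of all were TGTGGT of RUNX factors (11.9%, against 9.68%), TGACTCA of AP-1 (2.99%, against 2.94%) and TATAAA (4.48%, against 5.85%). The same held for letters from the left and right parts of the REST site. CAGCACC stood in 8.96% (against 7.42%) and GGACAG in 19.4% (against 20.1%). Letters bound by the first zinc finger domain of EVI1, GACAAGATA or the overlapping AAGATAA, were in 0 member promoters and in 0.0289% and 1.63% of all. The letters GATGAG, from the site of its second finger domain, stood in 1 (PI16), against 8.63% of all. A match is a description and no site, and these letters were looked for in this window only.

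The cAMP response element letters TGACGTCA, which read the same on both strands, stood in 6 member promoters (8.96%, against 3.34% of all), and these are shown because they join members of different roles. The letters run 5′ to 3′ on the strand of the gene from 250 bases before to 25 after that start, with TGACGTCA and the TATA box letters TATAAA (on either strand) in capitals.
TMEM59L (GRCh38.p14 chr19:18612620-18612894, plus strand): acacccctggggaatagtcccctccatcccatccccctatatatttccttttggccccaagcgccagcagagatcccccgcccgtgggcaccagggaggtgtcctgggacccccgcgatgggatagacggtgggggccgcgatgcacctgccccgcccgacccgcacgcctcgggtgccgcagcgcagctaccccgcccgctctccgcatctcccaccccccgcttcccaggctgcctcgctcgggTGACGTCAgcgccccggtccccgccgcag
CYSTM1 (GRCh38.p14 chr5:140174938-140175212, plus strand): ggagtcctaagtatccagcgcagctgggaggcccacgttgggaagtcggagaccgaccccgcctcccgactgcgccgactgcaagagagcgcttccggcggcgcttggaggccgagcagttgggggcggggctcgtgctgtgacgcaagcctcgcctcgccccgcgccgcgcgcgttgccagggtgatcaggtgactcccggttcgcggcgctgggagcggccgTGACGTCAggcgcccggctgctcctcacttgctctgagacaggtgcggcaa
TUBB2A (GRCh38.p14 chr6:3157520-3157794, minus strand): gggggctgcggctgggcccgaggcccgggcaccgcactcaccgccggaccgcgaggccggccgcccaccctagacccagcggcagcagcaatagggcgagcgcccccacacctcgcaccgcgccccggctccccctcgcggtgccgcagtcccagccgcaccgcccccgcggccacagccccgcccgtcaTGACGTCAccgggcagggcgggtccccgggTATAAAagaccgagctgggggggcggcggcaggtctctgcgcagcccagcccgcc
VGF (GRCh38.p14 chr7:101165545-101165819, minus strand): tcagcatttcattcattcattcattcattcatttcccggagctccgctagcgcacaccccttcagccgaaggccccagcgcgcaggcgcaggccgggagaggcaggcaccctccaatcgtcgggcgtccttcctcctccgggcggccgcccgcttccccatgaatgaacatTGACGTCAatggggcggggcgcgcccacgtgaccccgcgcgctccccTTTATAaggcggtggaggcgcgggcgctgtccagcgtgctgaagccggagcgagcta
TMEM86A (GRCh38.p14 chr11:18698529-18698803, plus strand): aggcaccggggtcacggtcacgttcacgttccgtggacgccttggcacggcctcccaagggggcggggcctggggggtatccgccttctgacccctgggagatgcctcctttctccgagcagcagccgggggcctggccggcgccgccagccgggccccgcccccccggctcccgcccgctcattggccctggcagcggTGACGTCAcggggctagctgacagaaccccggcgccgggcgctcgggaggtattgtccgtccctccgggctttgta
SPAG6 (GRCh38.p14 chr10:22345246-22345520, plus strand): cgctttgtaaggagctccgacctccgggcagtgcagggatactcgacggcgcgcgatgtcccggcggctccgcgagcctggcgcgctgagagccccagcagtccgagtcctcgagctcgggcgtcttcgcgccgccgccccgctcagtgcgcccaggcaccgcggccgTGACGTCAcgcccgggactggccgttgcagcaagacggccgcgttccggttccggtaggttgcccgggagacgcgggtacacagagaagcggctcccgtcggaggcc
The element began 4 bases before the start in TMEM59L, 26 in CYSTM1, 60 in TUBB2A, 79 in VGF, 51 in TMEM86A and 82 in SPAG6. The start used for VGF lies 4.4 kb inside the outer bound of the gene, and those of the other 5 are at it. VGF and TUBB2A also held TATAAA letters, on the antisense strand from base -32 in VGF and on the sense strand from base -30 in TUBB2A. Over the 6 knockdown libraries these genes ranged from 2.93 CPM (SPAG6) to 15.2 CPM (TMEM59L), and none was called between the shRNAs.

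Markers of other cell types were counted beside these results. HNT34 identity markers summed to 3426 to 3649 CPM in NT and to 977.5 to 1346 CPM after knockdown, with MECOM, CD34, PTPRC and SPI1 of 10 tested called lower and 0 higher. Fibroblast and stromal markers, of which COL1A1 is 1, summed to 30.4 to 46.0 CPM in NT and 34.95 to 40.8 CPM after knockdown, with COL1A1 and TAGLN of 5 tested called higher and PDGFRB and ACTA2 lower. The sums of the erythroid (26.4 to 27.3 CPM in NT, 3.41 to 6.57 CPM after knockdown), megakaryocyte (304 to 606 and 54.1 to 109 CPM), endothelial (666 to 688 and 174 to 256 CPM) and epithelial (136 to 150 and 72.5 to 101 CPM) markers were lower after knockdown in every library. The erythroid list had 4 of 20 genes tested, with 2 called lower, and the megakaryocyte list 5 of 14, with 3 lower and 1 higher. For the endothelial list 7 of 10 were tested, with 5 lower, and for the epithelial list 4 of 12, with 1 lower. Of the other blood markers tested, neutrophil genes had 1 of 3 called lower, monocyte genes 1 of 4, B cell genes 4 of 6 (with 1 higher), T and NK cell genes 1 of 7 (with CD3G higher) and dendritic cell genes 1 of 6 (with SPIB higher), while 0 of 3 eosinophil, basophil and mast cell genes were called. The hemoglobin genes, the neutrophil elastase gene ELANE and the monocyte gene CD14 were not analysed here. Their part in the members' levels was not tested. Lists without members gave 0 calls against NT among 5 chemokines, 3 cancer-testis antigens and 6 sarcomere genes. Between the shRNAs, 3 of these 5 chemokines were called higher with sh#87 and 0 lower, beside 8.29% and 9.42% of all genes. Among 14 genes of direct interest for EVI1, 3 were called higher against NT, including FOS and CDKN1A, and 2 lower, including SPI1. In bulk RNA, fewer cells of a type and less RNA per cell cannot be told apart.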

How the data were processed

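RNA of 9 HNT34 libraries, 3 each with NT, EVI1 sh#16 and EVI1 sh#87, was measured. The authors deposited estimated counts per gene, without normalization, as 1 table of 16612 genes. The header names salmon output and is shifted left by 1 column against the values, while the methods and the submitters' processing notes name STAR and GRCh38 (FastQC 1.3). All values were whole numbers. Depth was 17096170 to 43502389 counts per library, and the floor for a count of 0 was 3 counts in each library. The choice of genes for the table and the use of strand in counting are not given in the sources used here.

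The members were taken from the raw counts by the stated limits. The members and the gene lists, roles and motifs were chosen with earlier results of these data known. Differences were tested in R 4.3.3 with edgeR 4.0.16 (TMM, filterByExpr, quasi-likelihood test, Benjamini-Hochberg adjustment over 16312 genes), calling sh#87 against sh#16 at an adjusted p of at most 0.01 in a fit of 3 groups, and knockdown against NT with the added limit of 2 on the absolute log2 fold change in a fit of 2 groups. For the members the latter is a description. Both fits were run on simulated data with the same dispersion for every gene and library. That run does not cover the spread between the NT libraries, which was wider than that between the libraries of either shRNA. DESeq2 1.42.0, limma-voom (limma 3.58.1), other normalizations, filters, limits, a replicate block and each library left out were alternatives. CPM used TMM effective library sizes. Intervals of pooled ratios are exact (Clopper-Pearson) at 95%. Lengths came from GENCODE transcripts, and promoters, positions and biotypes from RefSeq (GRCh38.p14).

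Named in the text are the 10 members with the highest mean CPM after knockdown, up to 5 each way between the shRNAs, members of a listed gene group or sharing a symbol stem, those at the limits, and further members and relatives chosen after their values were seen. Some genes counted in the totals are not reported here by name.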

Additional observations from a re-analysis of the deposited data

Results flagged for a closer look

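The change against NT differed between sh#16 and sh#87 for 14 of the 108 members (13.0%, beside 17.7% of all genes), by the test of the difference itself (edgeR's quasi-likelihood test, called up to an adjusted p of 0.01). As sh#87 minus sh#16 on the log2 scale, this was 2.29 for DNAAF1, 1.75 for NANOGP5, 1.62 for PEG13, 1.59 for ITIH4, 1.53 for CYP46A1, 1.47 for TMPRSS9, 1.17 for ENTPD8, 0.98 for WHRN, 0.95 for DIXDC1 and 0.76 for PSD. It was -0.59 for SAMHD1, -0.82 for NGFR and -1.17 for SEPTIN3. All 14 lay above NT with both shRNAs, as the choice of members requires.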

How the results depend on the processing

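The number of members followed the limits: it was 59 with at most 5 counts in NT, 35 with at most 3, 165 with at least 20 counts in the knockdown libraries and 60 with at least 50, and 108 to 162 with each library left out of the choice. Of the members, 14 were called between the shRNAs. The count was 24 with DESeq2 (22.2% of members, 24.6% of all genes), 22 with limma-voom (20.4%, 18.2%), 43 with only the 6 knockdown libraries in the fit (39.8%, 48.0%), 31 at an adjusted p of 0.05 (28.7%, 33.7%), 8 with a log2 difference of at least 1 (7.41%, 4.27%), and 7 to 27 with each library left out. The cause of these changes was not tested. Leaving out a knockdown library also makes its group smaller. With the replicate number as a block the count was 8 (7.41%, 9.74%), of which 7 were among the 14. Over the 3 groups, same-numbered libraries did not deviate together (correlations from -0.234 to 0.12), so the numbers were not taken as pairs. In 6 of 18 comparisons a library correlated best with its own number, and all 6 were between NT and sh#16 (correlations from 0.0836 to 0.12). DNAAF1, NANOGP5, PEG13, ITIH4, CYP46A1, TMPRSS9 and SEPTIN3 were called with each library left out and under the block. No direction reversed among the 24 members whose difference was followed through the alternatives. The count of genes called against NT, 2511, stayed within 1.5 times under the alternatives run, at 2266 to 2776 with each library left out. Counts near the limits of 10 and 30 carry counting error.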
